A study of Drosophila melanogaster
Mus musculus with 36 samples.

Results

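The 6 libraries described here were made from RNA of fly and mouse cells mixed 1:1 and then either oxidised with sodium periodate (3 libraries) or left untreated (3 libraries). They were chosen by their sample labels, out of 36 libraries in the series. The fly RNA came from Drosophila S2-S cells, a cultured line of embryonic origin, of genotype DmHen1-KO with FLAG-MYC-AthHEN1. These cells lack their own Hen1 and carry a tagged HEN1 of Arabidopsis. The mouse RNA came from embryonic stem (ES) cells of the single clone AN3-12, with no manipulation of HEN1 given, and both treatments share these sources of RNA. In set 1 the mixture was built on 25 µg of mouse RNA and sequenced on a HiSeq2500, and in sets 2 and 3 the mixture held 50 µg of total RNA and was sequenced on a HiSeq2000. Each mixture was split after size selection, so the oxidised and untreated libraries of a set come from one sample. Nothing in the labels says that the sets came from separate cultures, so p-values measure the spread between these libraries, which may be technical.

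HEN1 is a methyltransferase that marks the 3' end of small RNAs with a methyl group on the ribose 2'-hydroxyl. The plant enzyme acts on miRNA duplexes, in which the 2 arms of a hairpin, 5p and 3p, are still paired, before one arm is loaded into an Argonaute protein and the other is mostly degraded. Periodate oxidises 3' ends that carry no methyl group, and such RNAs no longer ligate to the 3' adapter, so sequencing after oxidation favours methylated small RNAs. Animal miRNAs usually lack this methyl group.

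The files list 372 fly and 1666 mouse entries, 1 for each arm of a hairpin. Total miRNA counts were 1312983, 34686 and 352682 in oxidised replicates 1, 2 and 3, against 5319223, 326776 and 2351440 in untreated replicates 1, 2 and 3. Oxidised replicate 2 is the shallowest: a count of 0 there allows a share of up to 0.00984% of fly counts (3 counts). The 8 arms taken as markers of S2 cells, among them dme-bantam-3p and dme-mir-8-3p, held 46.5%, 41.9% and 36.8% of fly counts in oxidised libraries, against 53.9%, 64.3% and 56.4% in untreated libraries. Of 3 arms typical of other fly tissues, dme-let-7-5p had 0 counts in all 6 libraries, and dme-mir-124-3p and dme-mir-100-5p had 0 in oxidised libraries and at most 34 in an untreated one. Mouse counts carried the mir-290 cluster of ES cells, described below. The 12 entries marking differentiated mouse cells took 0.0421%, 0.0951% and 0.122% of mouse counts in oxidised libraries, against 0.706%, 0.661% and 0.782% in untreated libraries, most of it under the 3 copies of mmu-mir-124-3p. Set against mouse counts without entries that have fly relatives, since 1 such entry made up most oxidised mouse counts (below), the same markers stood at 0.609%, 0.835% and 0.913% in oxidised libraries and 0.759%, 0.757% and 0.886% in untreated libraries, and the groups overlapped.

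Fly miRNAs made up most of the counts after oxidation. They took 88.8%, 87.9% and 90.8% of all counts in oxidised replicates 1, 2 and 3, against 29.7%, 46.2% and 46.9% in untreated replicates 1, 2 and 3. The groups did not overlap. The log2 ratio of fly to mouse counts was 2.98, 2.86 and 3.30 in oxidised libraries, against -1.24, -0.22 and -0.18 in untreated libraries, and the difference was 3.59 ± 0.58 (SD, n = 3 pairs; exact two-sided permutation p = 0.1, the smallest that 3 against 3 allows). RNA and not cells was mixed, and the oxidised and untreated libraries of a set came from the same mixture. The difference therefore says nothing on cell numbers or RNA per cell.

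The mouse side of that ratio was mostly a single entry. mmu-mir-184-3p, of a miRNA found in both insects and mammals, held 91.6%, 87.3% and 85.1% of all mouse counts in oxidised replicates 1, 2 and 3, against 4.24%, 10.2% and 8.58% in untreated replicates 1, 2 and 3. Its counts were 135012, 3671 and 27721 in oxidised libraries and 158395, 17883 and 107127 in untreated libraries. The other arm of the mouse hairpin, mmu-mir-184-5p, had at most 1 count in any of the 6, whereas the fly arm dme-mir-184-5p had 11659, 330 and 3404 counts in oxidised libraries and 5375, 427 and 3797 in untreated libraries. The fly entry dme-mir-184-3p had 263, 12 and 100 counts in oxidised libraries, against 350, 54 and 245 in untreated libraries. Across the untreated 1:1, 1:10, 1:100 and 1:1000 mixtures of set 1, mmu-mir-184-3p had 158395, 23284, 3181 and 442 counts. Fly counts made up 29.7%, 3.91%, 0.513% and 0.0659% of these libraries, while the other mouse counts lay between 3580803 and 6162797. The entry thus fell with the share of fly RNA, and it fell in sets 2 and 3 too. Mature sequences were not at hand, so which of these entries received reads that fit both species was not tested.

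Without the 95 mouse entries that have a fly relative by name, the enrichment was much larger. The log2 ratio was then 6.84, 5.99 and 6.20 in oxidised libraries, against -1.14, -0.02 and 0.00 in untreated libraries. The difference was 6.73 ± 1.08 (SD, n = 3 pairs), or 106-fold, again with an exact two-sided permutation p of 0.1. Leaving related entries out of both species gave 6.60. These larger values rest on few mouse reads, since mouse counts without relatives were 10181, 479 and 4344 in oxidised libraries, against 3474794, 153453 and 1102668 in untreated libraries.

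**Figure D1:**
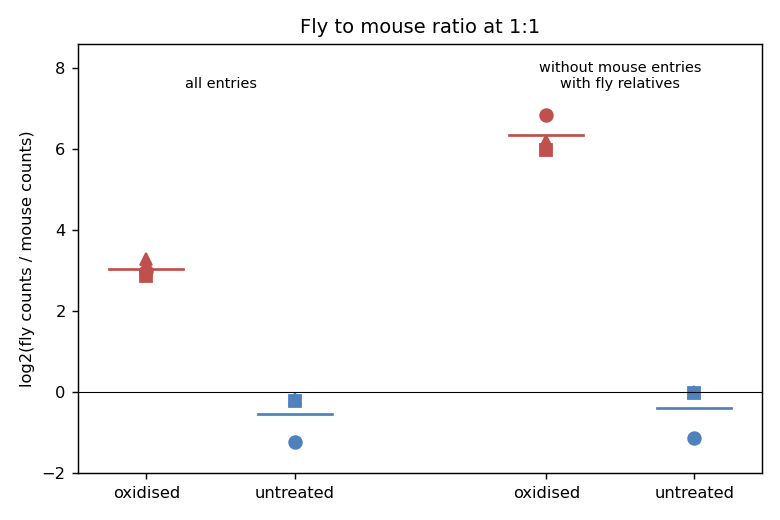
The log2 ratio of fly to mouse counts in each 1:1 library, oxidised left of untreated, with all entries (left pair) and without the mouse entries that have fly relatives by name (right pair). Circles, squares and triangles are replicates 1, 2 and 3 and bars are means. Oxidised libraries lie between 2.86 and 3.30 with all entries and between 5.99 and 6.84 without relatives, above every untreated library.

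Among the few mouse reads left, the mir-290 cluster still led. Of mouse counts without relatives, this cluster, typical of pluripotent cells, held 74.4%, 73.0% and 74.9% in oxidised libraries, against 75.0%, 79.9% and 76.1% in untreated libraries. These groups just failed to overlap, with 74.85% the highest oxidised and 75.04% the lowest untreated value. The cluster's member mmu-mir-294-3p held 18.0%, 14.9% and 17.9% in oxidised libraries and 17.7%, 17.2% and 18.0% in untreated libraries. For this arm the groups overlapped. Scaled to mouse miRNAs (mouse totals times factors from the trimmed mean of M-values, TMM), 361 mouse entries were tested with edgeR and their median log2 change was -0.53, which is the level against which single mouse changes are read. On that scale 0 of 14 tested mir-290 arms and 0 of 27 arms of the mir-17-92 cluster and its paralogs were called by edgeR, where a call is a Benjamini-Hochberg adjusted p below 0.05. At an unadjusted p below 0.05 there were 0 and 3, and DESeq2 called 0 of both. Over all 361 mouse entries edgeR called 2.49% higher and 0.277% lower, so 0 calls in lists of this size lies near that share. On mouse totals without TMM, where nearly all mouse entries are lower (below), mmu-mir-294-3p, mmu-mir-295-3p, mmu-mir-291a-3p and mmu-mir-292a-3p were called lower by 3.08 to 3.39 on the log2 scale. mmu-mir-292a-3p was also called lower without replicate 1 (-1.20; edgeR adjusted p = 0.048).

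Of the 361 mouse entries, 9 (2.49%) were called higher after oxidation and 1 (0.277%) lower. This split depends on the scale, with 4 higher and 348 lower on mouse totals without TMM (median -3.21), and 0 and 176 on total counts with TMM (median -2.97). The 9 were mmu-mir-184-3p, mmu-mir-33-5p, both copies each of mmu-mir-7a-5p, mmu-let-7a-5p and mmu-mir-125b-5p, and mmu-mir-6236-5p. All but mmu-mir-6236-5p have a fly relative by name. Per 1000 mouse counts without relatives, mmu-mir-184-3p stood at 13261, 7659 and 6382 in oxidised libraries, against 45.6, 116 and 97.2 in untreated libraries (edgeR log2 change 6.01 ± 0.89, SE; adjusted p = 5.19e-07). mmu-mir-33-5p stood at 35.1, 2.09 and 3.91 in oxidised libraries, against 1.23, 0.306 and 0.329 in untreated libraries, so the first set was far above the others in both treatments. Its log2 change was 3.99 ± 0.68 (edgeR adjusted p = 6.79e-06), and 1.79 and not called without oxidised replicate 1. mmu-mir-7a-1-5p stood at 76.0, 36.5 and 36.4 in oxidised libraries and 2.10, 3.35 and 2.66 in untreated libraries. The let-7a copies rest on at most 2.09 per 1000 in oxidised libraries, and neither they nor the mir-125b copies were called without replicate 3 or without oxidised replicate 3, and on total counts with TMM the sign of all 4 turned. The call of mmu-mir-494-3p as lower rests on 1, 0 and 1 oxidised counts. Both it and mmu-mir-6236-5p were named after their values were seen.

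Relative to mouse miRNAs, all 109 fly arms tested were called higher after oxidation (100% of fly arms tested). With edgeR 0 were lower (0%), with 0 at an unadjusted p below 0.05, and DESeq2 also called 0 lower. Scarce arms could pass the filter through oxidised libraries alone, which favours such calls. Without the filter 244 of 346 fly arms were called higher and 0 lower. On total counts with TMM 84 of the same 109 were called (median 4.75), and on mouse totals without TMM 106 (median 4.29), again with 0 lower. The log2 changes ran between 2.11 and 8.69, with a median of 6.80, beside the mouse median of -0.53. At the upper end dme-mir-308-5p, the usually scarce arm of a K-box family hairpin, stood at 1044, 545 and 788 per 1000 mouse counts without relatives in oxidised libraries, against 0.753, 1.00 and 1.87 in untreated libraries. dme-bantam-3p, from a miRNA that blocks cell death by repressing hid, stood at 11731, 6787 and 7687 per 1000 in oxidised libraries and at 160, 509 and 414 in untreated libraries. Its log2 change of 3.90 ± 0.81 was thus among the smaller ones, although its level was among the highest. On total counts with TMM it was 2.10 and not called (edgeR adjusted p = 0.279), and dme-mir-317-3p, dme-mir-305-5p, the 3p arms of dme-mir-13b, dme-mir-34-5p and dme-mir-282-5p were not called there either.

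The fly miRNAs differed from one another in how far oxidation brought them forward, which their shares of fly counts show without any mouse read. Of 109 fly arms tested with edgeR on fly totals, 45 (41.3%) gained share and 17 (15.6%) lost it, 62 in all (56.9%), and the median log2 change was 0.68. In 71 arms (65.1%) the oxidised and untreated libraries did not overlap. The filter set counts against all counts of a library, of which fly counts were a larger part after oxidation. Scarce arms could thus enter through oxidised libraries alone, which tilts the balance towards gains. Of 22 arms with 1% or more of fly counts in untreated 1:10 libraries 7 gained and 5 lost (median 0.08). Of 58 arms under 0.1% there 26 gained and 6 lost (median 0.83). The balance of gains and losses depends on the scale. With TMM factors from fly entries 16 arms were called higher and 27 lower (median 0.13), and all 16 and 17 of the 27 were among the calls by share. With dme-bantam-3p left out of the totals, a scale added after seeing the data, 20 were higher and 31 lower (median 0.05). Without replicate 3 the counts by share were 16 and 6, and without replicate 2 they were 24 and 17.

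**Figure D2:**
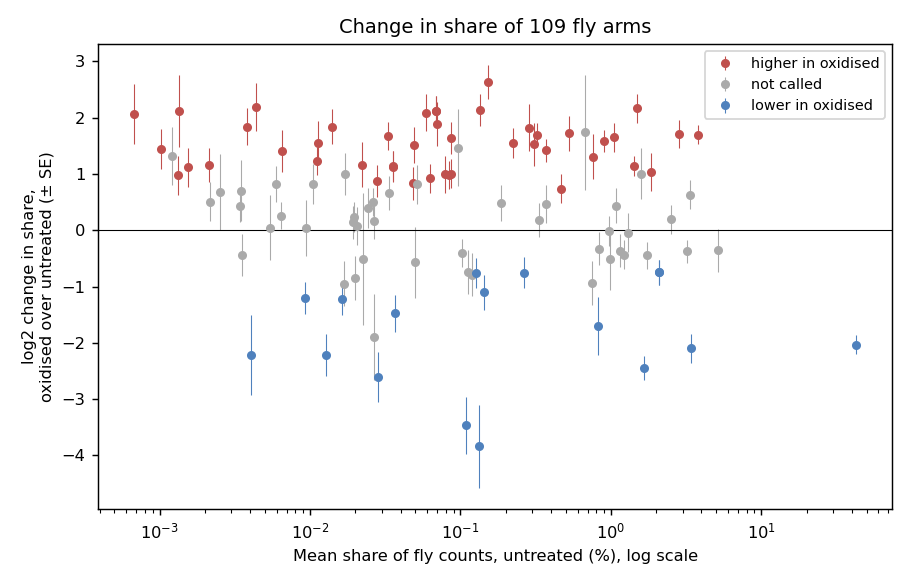
Change in share of fly counts (log2, oxidised over untreated, with SE) of the 109 fly arms tested, against the mean share in untreated libraries (log axis). Arms called higher (45) are red, those called lower (17) blue and those not called grey. The most abundant arm, dme-bantam-3p, lies at -2.03, and arms called higher occur over the whole range of abundance.

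Oxidised libraries were no longer led by dme-bantam-3p. It took 10.2%, 10.7% and 10.4% of fly counts in oxidised libraries, against 35.2%, 51.7% and 41.4% in untreated libraries (edgeR log2 change -2.03 ± 0.17, SE; adjusted p = 0.00025). The oxidised values lay close together, while the untreated ones were spread widely. The leading arm after oxidation was dme-mir-33-5p in replicate 1, with 12.2%, and dme-mir-2a-2-3p in replicates 2 and 3, with 14.1% and 11.1%. It took the 6, 7 and 8 most abundant arms to reach 50% of fly counts in oxidised replicates 1, 2 and 3, against 4, 1 and 3 arms in untreated replicates 1, 2 and 3.

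Of the 12 arms most abundant in untreated libraries, 3 gained share, 4 lost it and 5 were not called. dme-mir-2a-2-3p, of the family that represses the cell death genes reaper and grim, rose to 11.9%, 14.1% and 11.1% in oxidised libraries, against 3.76%, 3.70% and 3.95% in untreated libraries (1.70 ± 0.17; edgeR adjusted p = 0.000382). On the TMM scale its change was 1.05, just short of a call (edgeR adjusted p = 0.0512). dme-mir-33-5p, encoded in an intron of SREBP, the regulator of lipid synthesis, rose to 12.2%, 8.72% and 7.10% in oxidised libraries, against 3.39%, 2.59% and 2.59% in untreated libraries (1.71 ± 0.25; edgeR adjusted p = 0.0012). dme-bantam-5p, the partner of the leading arm, held 2.79%, 4.10% and 4.58% in oxidised libraries and 1.10%, 2.51% and 1.97% in untreated libraries. Its gain of 1.04 ± 0.34 (edgeR adjusted p = 0.032) was 0.32 and not called on the TMM scale, and it was not called in 5 of 9 omissions of a replicate or library, among them without replicate 2 or 3.

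Among the abundant losers, dme-mir-317-3p, which is cut from the same transcript as mir-277 and mir-34, fell to 0.964%, 0.653% and 0.774% in oxidised libraries, against 4.08%, 2.61% and 3.57% in untreated libraries (-2.10 ± 0.26; edgeR adjusted p = 0.000611). The 3p arms of both copies of dme-mir-13b, which belongs to the same family as mir-2, each held 1.26%, 1.21% and 1.24% in oxidised libraries and 2.47%, 1.64% and 2.12% in untreated libraries (-0.75 ± 0.22). This smaller loss was not called in 6 of 9 omissions, among them without replicate 1 or 3 (edgeR adjusted p of 0.067 and 0.196).

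The 5 others were not called. dme-mir-8-3p, a regulator of body growth related to mammalian mir-200, held 6.58%, 4.85% and 4.30% in oxidised libraries and 4.26%, 2.59% and 3.28% in untreated libraries. The groups just failed to overlap, and its change of 0.63 ± 0.26 had an edgeR adjusted p of 0.0647, or 0.0233 with the mixture as a replicate block. It was called without replicate 1 and without untreated replicate 1. dme-mir-11-3p changed by 0.20 ± 0.26 and dme-mir-282-5p by -0.36 ± 0.38. dme-mir-34-5p, known for a role in the ageing brain, changed by -0.37 ± 0.20 and dme-mir-305-5p by -0.45 ± 0.24. The sign of dme-mir-11-3p turned on other scales (-0.37 with TMM) and that of dme-mir-282-5p without replicate 1 (0.10). With dme-bantam-3p left out of the totals, dme-mir-305-5p (-1.09), dme-mir-34-5p (-1.06) and dme-mir-282-5p (-0.95) were called lower, as they were with DESeq2, and dme-mir-305-5p also with TMM (-1.11).

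**Figure D3:**
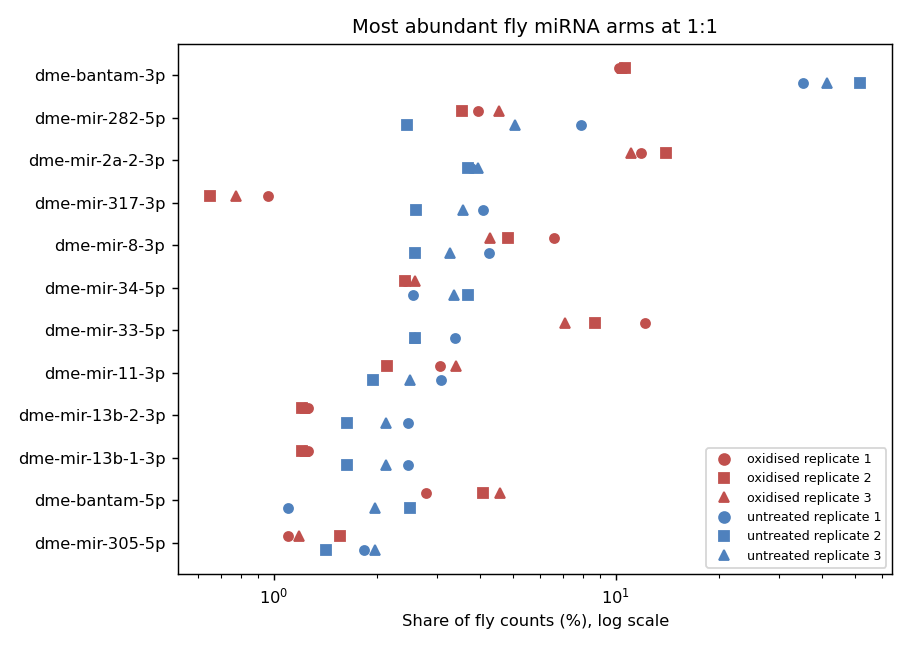
Share of fly counts (log axis) of the 12 fly arms most abundant in untreated 1:1 libraries, 1 point per library, oxidised in red above untreated in blue. dme-bantam-3p and dme-mir-317-3p lie left of their untreated values in every oxidised library, and dme-mir-2a-2-3p and dme-mir-33-5p right of them.

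The largest gains among arms with 50 or more counts on average in both groups were mostly of arms that are scarce beside their partner. dme-mir-308-5p rose to 0.912%, 0.856% and 1.07% of fly counts in oxidised libraries, against 0.166%, 0.102% and 0.187% in untreated libraries (2.64 ± 0.30; edgeR adjusted p = 0.000611). dme-mir-282-3p rose to 7.42%, 6.32% and 6.21% in oxidised libraries, against 1.88%, 1.04% and 1.52% in untreated libraries (2.17 ± 0.26; edgeR adjusted p = 0.000611). It thereby stood among the most abundant fly arms after oxidation. The other 6 gained between 1.84 and 2.14, namely dme-mir-988-5p, the 5p arms of dme-mir-276a and dme-mir-276b (identical in counts throughout), dme-mir-305-3p, dme-mir-996-5p and the mirtron arm dme-mir-1012-5p. Of these, dme-mir-996-5p was not called without replicate 3 (edgeR adjusted p = 0.0684).

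The 8 largest losses were led by dme-mir-2a-1-3p. It fell to 0.323%, 0.304% and 0.291% in oxidised libraries, against 1.74%, 1.46% and 1.81% in untreated libraries (-2.45 ± 0.22; edgeR adjusted p = 0.00025). Its name makes it a second copy of the mature miRNA also listed as dme-mir-2a-2-3p, which gained, and the counting of reads that fit both copies is not known. Both together held 12.2%, 14.4% and 11.4% in oxidised libraries and 5.50%, 5.15% and 5.77% in untreated libraries. dme-mir-308-3p fell to 0.241%, 0.203% and 0.305% in oxidised libraries, against 1.40%, 0.310% and 0.740% in untreated libraries (-1.70 ± 0.51; edgeR adjusted p = 0.0239), and it was not called without replicate 3, oxidised replicate 1 or oxidised replicate 2. Beside dme-mir-317-3p and dme-bantam-3p, the rest were dme-mir-9b-3p (-1.48 ± 0.33), dme-mir-970-3p (-1.10 ± 0.32), dme-mir-317-5p (-0.76 ± 0.27) and dme-mir-998-3p (-0.75 ± 0.27). The last 3 were not called without replicate 3, and dme-mir-317-5p and dme-mir-998-3p were each not called in 7 of 9 omissions.

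By name, 33 of 51 tested 5p arms gained share and 4 lost it (median 1.15), while 12 of 58 tested 3p arms gained and 13 lost (median 0.19). Over all 109 fly arms 41.3% gained and 15.6% lost (median 0.68). These counts hold for shares only. With TMM 16 arms in all were called higher and 27 lower, and the split by arm was not counted there. In 42 hairpins both arms were tested. Scarce arms could pass the filter through oxidised libraries alone, which favours gains among minor arms. The arm with more counts in untreated 1:10 libraries, which this comparison does not use, was taken as dominant, and it was the same in untreated 1:1 libraries in all 42. Of the 42 minor arms 23 gained share of fly counts and 4 lost it (median 1.02), and of the 42 dominant arms 16 gained and 9 lost (median 0.19). Most minor arms (26) were 5p, so the position of an arm and its dominance overlap: 18 of 26 minor 5p arms and 9 of 16 dominant 5p arms gained, beside 5 of 16 minor 3p arms and 7 of 26 dominant 3p arms.

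Within a hairpin, the ratio of minor to dominant arm needs no scaling between libraries. This comparison was added after the shares had been seen. With edgeR, the minor arm gained on the dominant arm in 17 of 42 hairpins (40.5%) and lost in 6 (14.3%), with a median log2 change of 0.56 and a range of -4.66 to 4.16. Both arms had to pass the filter, which scarce minor arms could do through oxidised libraries alone, and this favours gains. It was so for the minor arms of dme-mir-1002, dme-mir-980 and dme-mir-999, all called gains. In the 33 hairpins whose dominant arm had 1000 or more counts, which leave these out, 14 gained and 5 lost. Over 9 omissions of a replicate or library, 12 of the 17 gains and 4 of the 6 losses were called each time.

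In 3 of the hairpins called, with 1000 or more counts, the minor arm became the more abundant one in every oxidised library. For dme-mir-308, whose host gene encodes a ribosomal protein, the 5p arm made up 79.1%, 80.8% and 77.8% of the hairpin's counts in oxidised libraries, against 10.6%, 24.7% and 20.2% in untreated libraries (log2 change 4.16 ± 0.45; edgeR adjusted p = 2.36e-05). For dme-mir-2a-1 the 5p arm made up 61.4%, 67.5% and 73.6% in oxidised libraries, against 9.29%, 14.7% and 11.7% in untreated libraries (3.98 ± 0.40), with the reservation on the 3p copies given above. For dme-mir-282 the 3p arm made up 65.3%, 64.1% and 57.6% in oxidised libraries, against 19.3%, 29.9% and 23.0% in untreated libraries (2.41 ± 0.31; edgeR adjusted p = 7.61e-05). For dme-bantam the 5p arm made up 21.4%, 27.7% and 30.5% in oxidised libraries, against 3.03%, 4.62% and 4.55% in untreated libraries (3.10 ± 0.25; edgeR adjusted p = 3.69e-06). In all 4 hairpins the groups did not overlap.

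Further gains of the minor arm lay between 2.19 and 2.62 in dme-mir-79, dme-mir-305, dme-mir-996, dme-mir-276a and dme-mir-34. In dme-mir-34 the 3p arm made up 19.7%, 35.6% and 30.1% in oxidised libraries, against 5.96%, 8.04% and 9.99% in untreated libraries. Smaller gains between 1.08 and 1.74 were called for dme-mir-13b-2, dme-mir-965, dme-mir-275, dme-mir-317 and dme-mir-8. Those of dme-mir-275, dme-mir-317 and dme-mir-8 were lost without replicate 3, and that of dme-mir-965 in 6 of 9 omissions. The reservation on copies applies to dme-mir-13b-2 and dme-mir-276a too. In dme-mir-14, a regulator of cell death and fat storage, the 5p arm made up 73.4%, 76.5% and 57.1% in oxidised libraries and 30.7%, 66.6% and 45.7% in untreated libraries. The groups overlapped, and the change was not called (1.34 ± 0.57; edgeR adjusted p = 0.062).

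The opposite change, a minor arm that lost ground, was called in 5 hairpins with 1000 or more counts. In dme-mir-9c the 3p arm made up 0.568%, 4.20% and 2.01% in oxidised libraries, against 32.7%, 23.0% and 24.9% in untreated libraries (-4.66 ± 0.60; edgeR adjusted p = 7.61e-05), on 25, 6 and 46 oxidised counts. In dme-mir-33 the 3p arm made up 12.5%, 10.2% and 19.0% in oxidised libraries, against 29.2%, 23.3% and 29.5% in untreated libraries (-1.26 ± 0.34; edgeR adjusted p = 0.00812). The other 3 were dme-mir-1006 (-3.17), dme-mir-2b-2 (-2.54) and dme-mir-184 (-1.51). In dme-mir-2b-2 the 3p arm had 390, 25.5 and 285.5 oxidised counts, close to the 405, 26.5 and 291.5 of its copy dme-mir-2b-1-3p. The reservation on copies given above therefore applies to this loss. The loss in dme-mir-1006 rests on 5, 2 and 3 oxidised counts of the 5p arm, and its groups overlapped (0.332%, 6.06% and 0.734% in oxidised libraries, against 4.18%, 9.76% and 5.19% in untreated libraries). In dme-mir-184 the 3p arm is the one whose mouse entry held far more counts, and the call was lost without replicate 3. Per count of dme-mir-184-5p, mmu-mir-184-3p had 11.6, 11.1 and 8.14 counts in oxidised libraries, against 29.5, 41.9 and 28.2 in untreated libraries. With that entry taken as fly, 3p would be the dominant arm and the minor 5p arm would have gained. Such a fit was not run, so the direction in this hairpin is uncertain.

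**Figure D4:**
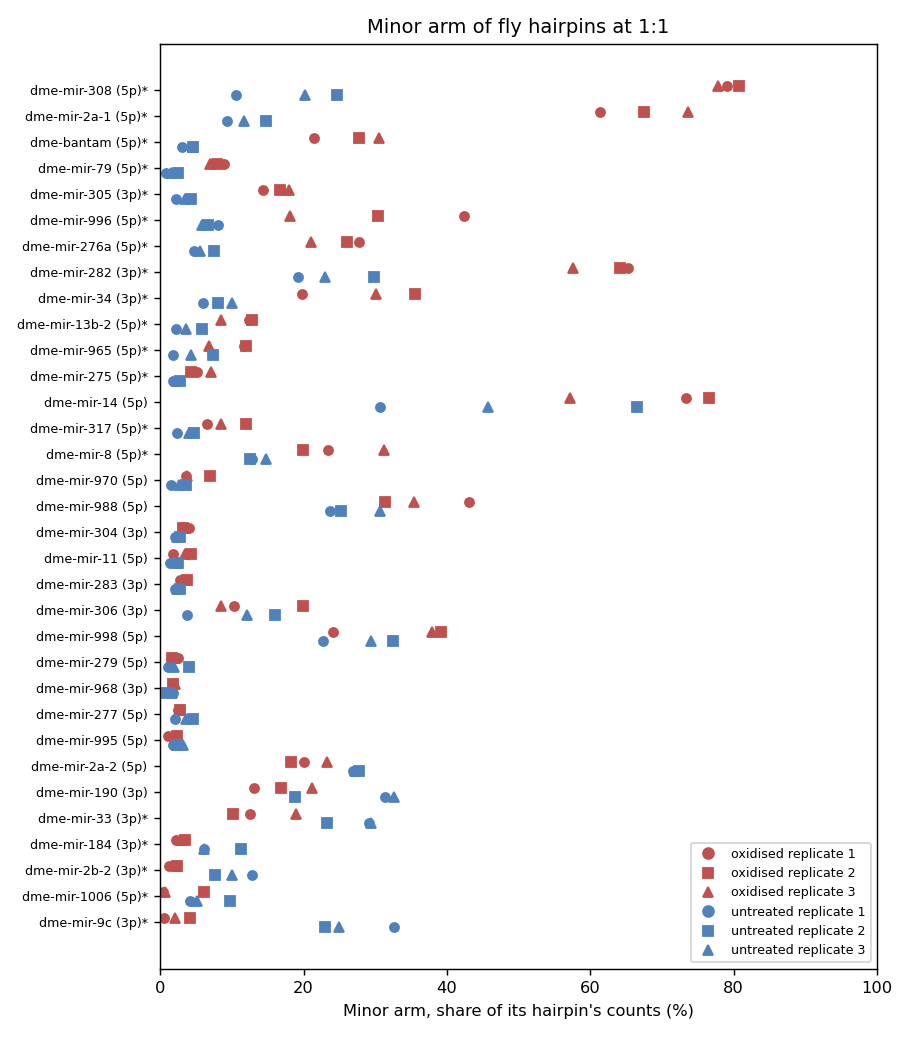
Share of a hairpin's counts taken by its minor arm (named in brackets) in the 33 fly hairpins whose dominant arm had 1000 or more counts, 1 point per library, oxidised in red above untreated in blue, ordered by log2 change. Asterisks mark the 14 called higher and 5 called lower; in dme-mir-308, dme-mir-2a-1 and dme-mir-282 every oxidised library lies above 50%.

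Families and clusters were mixed in their changes of share. Of 16 tested arms of the K-box family (mir-2, mir-6, mir-11, mir-13 and mir-308), whose usual 3p seeds pair to K-box motifs, 6 gained and 4 lost, with a median of -0.16. Over all 109 fly arms 41.3% gained and 15.6% lost, with a median of 0.68, and these apply to the next 3 lists too. The gains were the 5p arms of dme-mir-308, dme-mir-2a-1, dme-mir-2a-2, dme-mir-2b-2 and dme-mir-13b-2 together with dme-mir-2a-2-3p, and the losses were 3p arms. The family's summed share was 25.5%, 27.7% and 26.9% in oxidised libraries, against 17.8%, 14.2% and 16.6% in untreated libraries. In the cluster of mir-277, mir-34 and mir-317 2 of 6 arms gained, dme-mir-34-3p (1.82 ± 0.42) and dme-mir-277-5p (0.84 ± 0.29), and both arms of mir-317 lost. Of 8 tested arms of the mir-9 family list 2 gained and 3 lost (median -0.24). Of 8 mirtron arms, which splicing cuts from short introns, 3 gained and 2 lost (median 0.37), with dme-mir-1008-3p at -3.47 ± 0.51 on 87, 2 and 44 oxidised counts.

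The remaining lists are set beside the same 41.3% higher and 15.6% lower over all fly arms. Among 72 tested arms on the list of S2 cell miRNAs 30 gained and 12 lost (median 0.55), and they held between 98.4% and 99.2% of fly counts over all 6 libraries. Of 8 tested arms of tissue-restricted miRNAs 4 gained and 0 lost (median 0.90), out of 31 listed. Of 3 tested arms of hairpins with high registry numbers 2 gained and 0 lost (median 1.45), out of 121 listed. Of these, dme-mir-9370-5p passed the filter only through oxidised libraries (33, 1 and 6 counts, against 13, 2 and 10 in untreated libraries). Scarce arms that did not rise were less likely to be tested. The balance in lists of scarce arms is thus partly set by the filter. Of 15 fly arms with mouse relatives by name 5 gained and 4 lost (median 0.44).

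The direction of the changes in share was the same at the 1:10 mixture, which shares no library with the 1:1 mixture but may share RNA, in every called arm that was tested there. Of the 45 arms that gained at 1:1, 42 were tested at 1:10, all 42 had the same sign and 36 were called. Of the 17 that lost, 15 were tested, all 15 had the same sign and 13 were called. The difference between the ratios was tested directly as an interaction in edgeR, and 0 of 123 arms (0%) were called, with 2 at an unadjusted p below 0.05 and a smallest adjusted p of 0.963. DESeq2 also called 0. On simulated data the same model, over 102 entries, recovered 20 of 20 differences of 3 log2 units but 8 of 20 of 1.5, so smaller differences between the ratios may go uncalled. The median absolute difference was 0.27 on the log2 scale. dme-bantam-3p changed by -2.03 at 1:1 and by -1.70 at 1:10. Of the 17 hairpins with a gain of the minor arm at 1:1, 16 were called at 1:10 too. Of the 6 with a loss, 4 were called, and dme-mir-184 (-0.60) and dme-mir-9b (-0.53) were not. dme-mir-308 changed by 4.16 at 1:1 and 4.45 at 1:10.

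**Figure D5:**
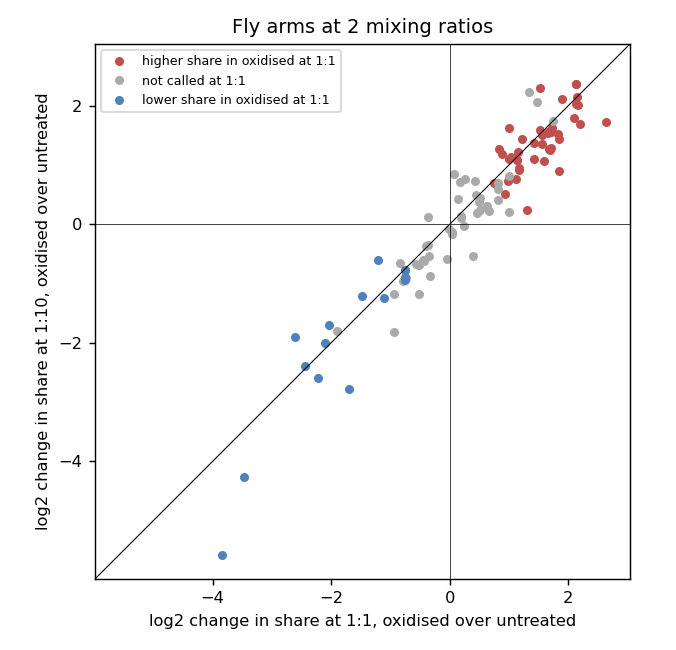
Change in share of fly counts (log2, oxidised over untreated) at 1:1 on the horizontal and at 1:10 on the vertical axis, for 101 fly arms with a value at both, with the line of equality. Red and blue mark arms called higher and lower at 1:1, and 96 of 101 arms have the same sign at both ratios.

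The enrichment of fly over mouse counts was smaller at 1:1 than at 1:10 in every set. Oxidised minus untreated, the log2 ratio differed by 4.23, 3.08 and 3.48 at 1:1 in sets 1, 2 and 3, and by 7.40, 6.14 and 5.90 at 1:10. Most of this gap lay in the untreated libraries, with -1.24, -0.22 and -0.18 at 1:1 and -4.62, -3.36 and -3.11 at 1:10, where more mouse RNA was mixed in. Without mouse entries that have fly relatives, oxidised libraries stood at 6.84, 5.99 and 6.20 at 1:1. At 1:10 they stood at 4.78, 5.86 and 5.81, so those of set 1 lay well apart. With all entries, where mmu-mir-184-3p held most oxidised mouse counts, they lay close together. They then stood at 2.98, 2.86 and 3.30 at 1:1 and at 2.78, 2.77 and 2.79 at 1:10. The 1:1 value was lower by 2.89 on average (log2 -2.89; exact two-sided permutation p = 0.1, the smallest possible), and without mouse entries that have fly relatives the difference was -2.40.

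The order of fly arms by abundance was similar within a treatment and less so between treatments. Across 109 arms, which are not independent replicates, Spearman's rho was 0.959 to 0.981 among oxidised libraries and 0.960 to 0.991 among untreated libraries. Between an oxidised and an untreated library it was 0.880 to 0.934, below every value within a treatment.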

How the data were processed

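The deposited files hold expected counts per miRNA arm for fly and mouse entries together, fractional where reads were shared, without scaling to depth (read from the values, since the headers name only the columns). Per the submitters' processing notes, cutadapt 1.2.1 and HTSeq 0.6.1p1 were used with builds mm10 and dm3. The aligner is not given in the sources used here, nor is the rule for shared reads. In set 1 the files list 1781 of 2038 entries, and the 257 others, none above 6 counts elsewhere, were set to 0. The set without a replicate number in its labels was taken as replicate 1.

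Counts were rounded and tested with edgeR 4.0.16 quasi-likelihood fits in R 4.3.3 on the 6 libraries (filterByExpr, minimum count 10, minimum total 15; Benjamini-Hochberg, adjusted p below 0.05), with library sizes of mouse totals times TMM factors, or of fly totals for shares. The filter used library sizes of all counts of both species. A change is oxidised over untreated. DESeq2 1.42.0 was an alternative. Minor and dominant arms were compared in a fit with a term per library. Models were tested on simulated data with the dispersion of these libraries: for shares, over 121 entries, 20 of 20 changes of 3 log2 units and 13 of 20 of 1.5 were recovered. There 0 unchanged entries were called. For minor against dominant arms, over 42 hairpins, 8 of 8 and 5 of 8 were recovered and 2 unchanged hairpins were called. Relative to mouse, over 520 entries, 96 of 98 and 40 of 91 were recovered and 9 unchanged entries were called. For 1:1 against 1:10 there was 1 such call. Simulated libraries kept the mean composition of untreated libraries, so the oxidised ones held far more mouse counts than the real ones. Recovery relative to mouse at the real mouse depth was not tested.

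The members, lists and tests were chosen with earlier results of these data known. Named fly arms were the 12 most abundant in untreated libraries, the 8 largest called gains and losses with 50 or more counts on average in both groups, and hairpins with 1000 or more counts; named mouse entries were the 5 most abundant per group and related entries called higher. Without mature sequences, relatives were taken by name (95 mouse and 37 fly entries) and no sequence is shown. Mixtures were split in 2 per the labels, so replicate numbers pair the libraries; deviations of same-numbered libraries correlated at 0.659, 0.324 and 0.451, and oxidised replicate 2 correlated with untreated replicate 3 at 0.326. No library was a copy of another. Floors cover counting error only.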

Additional observations from a re-analysis of the deposited data

How the results depend on the processing

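The fly to mouse difference at 1:1 lay between 3.25 and 3.85 over omissions of a replicate or library, and with the pairs as replicate blocks it was the same 3.59 (exact sign-flip permutation p = 0.25, the smallest possible). Moving mmu-mir-184-3p to the fly side, which was tried after seeing the data, gave 6.58. The difference between 1:1 and 1:10 lay between -3.12 and -2.74.

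Counts of calls moved with scaling, filter and omissions. Mouse entries called higher and lower were 4 and 348 on mouse totals without TMM, 0 and 176 on total counts with TMM, and 0 lower with DESeq2; without replicates or libraries they ranged over 5 to 17 and 0 to 10. Fly arms higher relative to mouse were 84 on total counts with TMM (median log2 change 4.75), 106 on mouse totals without TMM (median 4.29), 199 with DESeq2 and 244 without a filter, both of which tested more entries, and 98 to 136 over omissions. By share, higher and lower arms were 16 and 27 with TMM, 20 and 34 with DESeq2, 20 and 31 without dme-bantam-3p in the totals, and 16 to 50 and 6 to 17 over omissions. Without fly entries that have mouse relatives, which tests fewer arms, 11 were lower. The replicate block gave 53 and 23 by share, 19 and 9 for hairpins, and changed no other count by over 1.5 times. Hairpin counts ranged over 13 to 18 and 4 to 8.

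Signs turned on total counts with TMM for mmu-let-7a-1-5p (-0.083), mmu-let-7a-2-5p (-0.085), mmu-mir-125b-2-5p (-0.23) and mmu-mir-125b-1-5p (-0.24). They turned for dme-mir-11-3p with TMM (-0.37), DESeq2 (-0.41) and totals without dme-bantam-3p (-0.44), for dme-mir-8-3p on the last (-4.48e-05), and for dme-mir-282-5p without replicate 1 (0.10) or untreated replicate 1 (0.09), within a range of -0.69 to 0.10 over omissions. The cause was not tested. Summing entries of the same mature sequence was not run; summing hairpin copies by name took its place. Mouse changes are limited by the 479 mouse counts without relatives in oxidised replicate 2.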

Other observations

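A pair of fly arms differed between the sets by over 4-fold in the same way in both treatments. dme-mir-252-5p held 0.327%, 3.07% and 3.35% of fly counts in oxidised replicates 1, 2 and 3, against 0.0784%, 0.910% and 1.03% in untreated replicates 1, 2 and 3. Within each set its share was higher in the oxidised library, but the groups overlapped and the change of 1.74 ± 1.02 (SE) was not called (edgeR adjusted p = 0.174). dme-mir-13a-3p went the other way between sets, with 0.0343%, 0.00328% and 0.0025% in oxidised libraries and 0.0578%, 0.0053% and 0.00438% in untreated libraries. Set 1 differs from the others in RNA input and sequencer, and these cannot be told apart from other differences between the sets.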
